A study of Mus musculus with 3 samples.

Results

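The stretch described here lies on mouse chromosome 12 around Adck1 and Sel1l, and its members were chosen by position because probes in it differed strongly between RM1-MXRA7 and RM1-VE. Every noncontrol probe whose mm9 position starts from chr12:88500000 to chr12:93500000 was taken, which gave 80 of the 39429 distinct probes on the array. They carry 60 gene or transcript names out of 30342. Of the 80 members, 49 passed the background filter, in that all 3 arrays read them well above it for RM1-MXRA7, RM1-VE or both, and were kept, and 31 were not. The stretch was picked from the very contrast reported here, so all ratios of its members are a description and support nothing about it.

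RM1 cells come from a mouse prostate cancer. The line RM1-MXRA7 had been transfected with MXRA7 and RM1-VE with the vehicle vector, and both lines were grown in medium with G418 and sampled in exponential growth on day 2. Total RNA of the lines was set against each other on 3 Agilent arrays with Cy3 for RM1-MXRA7 and Cy5 for RM1-VE throughout, so a dye effect and a difference between the lines cannot be told apart. The labels do not say whether a line is 1 clone or a pool, nor whether the arrays came from separate cultures, and the spread between arrays may be technical.

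Adck1 encodes a mitochondrial protein of the ADCK and COQ8 family of kinase-like proteins. Sel1l encodes the membrane adaptor of the Hrd1 ubiquitin ligase (Syvn1), which takes misfolded proteins out of the endoplasmic reticulum for degradation. Between Snw1 and Adck1, RefSeq (GRCm38.p6, used for names and order only) lists 71 genes, of which 18 are protein coding and 12 have a sequence on the array. Most of these carry only provisional names such as Gm2016 or Gm2022, and no role is given to them here.

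Several of the leading probes of this gene cluster are so alike in sequence that a transcript read by 1 of them could be read by another, and the part of such cross-reading in the ratios was not tested. The most alike sets are shown first for that reason, and a less alike pair is given with the unnamed probes. All are 60-base probes from the array files, 5′ to 3′, and a capital marks a base that differs from the first probe of its set where the probes overlap. The files give mm9 positions and no strand, only the order in which the ends of a probe are written. That order runs upward for all 8 probes shown except the Gm2016 probe of the first set. Exon or UTR status was not determined, since no annotation of this build was used.

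The first set holds the probes of Gm21319 (chr12:89265932-89265991), Gm8300 (chr12:88858331-88858390) and Gm2016 (chr12:89276065-89276124).
Gm21319: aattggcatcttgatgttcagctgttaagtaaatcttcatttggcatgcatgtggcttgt
Gm8300: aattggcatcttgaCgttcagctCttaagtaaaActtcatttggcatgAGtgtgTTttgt
Gm2016: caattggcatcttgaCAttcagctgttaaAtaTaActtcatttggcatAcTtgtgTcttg
The Gm8300 probe matched that of Gm21319 at 53 of 60 bases, and the Gm2016 probe at 51 of 59.

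The second set holds BB287469 (chr12:89058287-89058346), another Gm8300 probe (chr12:88858368-88858426) and another Gm2016 probe (chr12:89115537-89115596).
BB287469: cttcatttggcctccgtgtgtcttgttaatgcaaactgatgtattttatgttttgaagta
Gm8300: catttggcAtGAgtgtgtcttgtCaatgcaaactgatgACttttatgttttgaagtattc
Gm2016: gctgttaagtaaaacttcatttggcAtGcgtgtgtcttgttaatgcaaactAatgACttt
The Gm8300 probe matched BB287469 at 51 of 57 overlapping bases and the Gm2016 probe at 41 of 46. This Gm2016 probe also shared 37 bases with each of the Gm21319 and Gm8300 probes of the first set. The first and second sets are thus not separate in sequence.

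The third set holds Gm2022 (chr12:89134497-89134556) and a probe without a gene name (chr12:89218929-89218988), which matched at 45 of 48 overlapping bases.
Gm2022: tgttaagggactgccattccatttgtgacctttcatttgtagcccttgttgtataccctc
unnamed: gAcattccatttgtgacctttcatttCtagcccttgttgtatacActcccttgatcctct

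**Figure D1:**
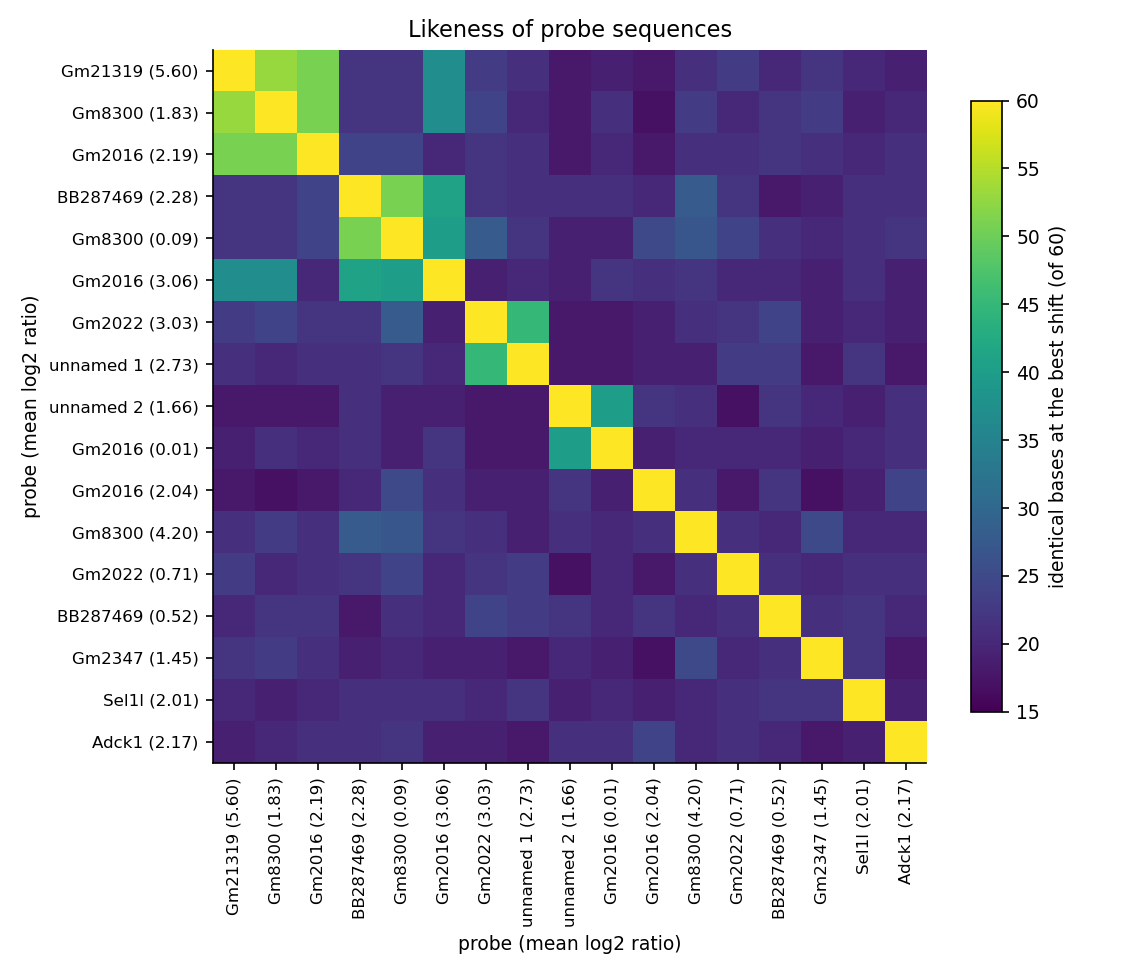
Likeness of the 60-base probes of the genes with leading members. Each cell gives the number of identical bases at the best ungapped shift (colour, up to 60), and the labels give the mean log2 ratio of RM1-MXRA7 over RM1-VE in parentheses. The sets of Gm21319, BB287469 and Gm2022, and the pair of an unnamed and a Gm2016 probe, stand out off the diagonal, whereas Adck1, Sel1l and Gm2347 match no other probe shown. The Gm2016 probe of the BB287469 set also shares 37 bases with the Gm21319 probe and with the Gm8300 probe of its set.

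Among 14 leading members, that is the 13 at least 2-fold apart and 1 more with RM1-VE below background, 9 had a probe somewhere on the array with at least 40 identical bases, and 8 had such a probe among the members. Of the other 66 members, 16 and 6 did. The likeness map shows the blocks for the genes with leading members. Neither Adck1, Sel1l nor Gm2347 had an alike probe on the array, nor had the Gm8300 probe at chr12:88858902-88858961.

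Of the 49 kept members, 19 were called higher in RM1-MXRA7 and 1 was called lower, beside 11.3% called higher and 12.2% called lower over all 21791 kept probes. A probe was called where its adjusted p in limma was at most 0.05, with the same direction, both after loess normalization and after removal of a smooth surface that ran along the array rows. At least 2-fold higher were 13 members and at least 2-fold lower 0, beside 0.307% and 0.551% of all kept probes. Since the stretch was picked from these ratios, nothing is read from these shares.

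The cluster before Adck1 held the largest ratios. Gm21319 had log2 ratios of 5.52, 5.68 and 5.61 on arrays 1, 2 and 3, a mean of 5.60 ± 0.08 (SD, n = 3). Its processed intensity was 1421, 1746 and 1480 in RM1-MXRA7 against 4.29, 7.67 and 4.79 in RM1-VE, where the probe was not well above background on any array. RM1-MXRA7 was high on every array and RM1-VE at the background, so only a bound can be given, and the level was at least 42.7-fold higher. This bound and those that follow took the RM1-VE signal of each array, per channel after loess and Aquantile. Where that signal was under the lowest signal well above background, the latter took its place. The bounds are open to dye bias because no dyes were swapped.

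Gm8300 was read by 3 member probes that disagreed. The probe at chr12:88858902-88858961 had log2 ratios of 4.11, 4.31 and 4.19, a mean of 4.20 ± 0.10. Its intensity was 594.0, 656.3 and 547.7 in RM1-MXRA7 against 2.34, 1.77 and 2.98 in RM1-VE, at least 13.0-fold higher. RM1-VE was again not well above background on any array. The Gm8300 probe of the first set had log2 ratios of 1.91, 1.72 and 1.86 (mean 1.83 ± 0.10), at least 2.53-fold higher, with 67.4, 67.9 and 61.5 in RM1-MXRA7. The Gm8300 probe of the second set was not well above background on any array in either line and had a mean log2 ratio of 0.09 ± 0.08. The overlap of these last probes on the genome is 23 positions, at which their sequences share 22 bases and differ at 1.

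BB287469 had log2 ratios of 2.57, 2.16 and 2.12, a mean of 2.28 ± 0.25 and at least 4.29-fold higher in RM1-MXRA7. The intensity was 195.4, 143.3 and 134.4 there against 6.73, 7.56 and 6.53 in RM1-VE. These groups did not overlap, but the share of all kept probes without overlap was not counted, here or for the members below. A further BB287469 probe at chr12:89059007-89059066, which resembles no other probe, had the smaller log2 ratios of 0.52, 0.75 and 0.30 (mean 0.52 ± 0.22). It was well above background in RM1-VE on 1 array, where its intensity of 19.97 lay within the 18.3 to 38.2 of RM1-MXRA7.

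Gm2016 had 3 kept probes, all at least 2-fold higher. The probe at chr12:89115318-89115377 was well above background in both lines on all arrays, with intensities of 1849, 2019 and 1841 in RM1-MXRA7 against 523.3, 498.1 and 360.4 in RM1-VE. Its log2 ratios were 1.81, 1.92 and 2.38, a mean of 2.04 ± 0.30 or 4.10-fold. This Gm2016 probe was therefore a measured ratio and not a bound. The Gm2016 probe of the second set had log2 ratios of 3.28, 2.94 and 2.98 (mean 3.06 ± 0.19), at least 6.54-fold higher. The array file names the probe of the first set Gm2016 although in mm9 it lies beyond the Gm21319 probe. It had log2 ratios of 2.39, 2.13 and 2.06 (mean 2.19 ± 0.17), at least 3.49-fold higher. In RM1-VE both stayed below an intensity that counted as well above background. The remaining member probe of Gm2016 was well above background on only 1 array in each line and had a mean log2 ratio of 0.01 ± 0.05. A further Gm2016 probe without an mm9 position, outside the members, was well above background on no array and had -0.16 ± 0.22.

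Gm2022 was measured well above background in both lines at 1 of its probes. That probe, shown in the third set, had intensities of 595.2, 528.3 and 500.7 in RM1-MXRA7 against 32.5, 33.0 and 32.9 in RM1-VE. The log2 ratios were 3.11, 3.08 and 2.91, a mean of 3.03 ± 0.11 or 8.18-fold higher. A dim Gm2022 probe at chr12:89133631-89133690, with 26.1, 21.3 and 22.2 in RM1-MXRA7, had log2 ratios of 0.81, 0.58 and 0.75 (mean 0.71 ± 0.12) and a bound of at least 1.42-fold. Both Gm2022 probes were thus higher in RM1-MXRA7 on every array, at different sizes.

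Probes without a gene name lie in the same cluster. The unnamed probe of the third set had log2 ratios of 3.02, 2.74 and 2.44 (mean 2.73 ± 0.29), at least 6.32-fold higher. The unnamed probe at chr12:89219400-89219459 had 1.86, 1.60 and 1.53 (mean 1.66 ± 0.17), at least 2.61-fold higher. It matches 40 bases of the Gm2016 member probe at chr12:89116181-89116240, whose mean log2 ratio was 0.01 as given above. In RM1-VE neither was well above background on any array. Another unnamed probe, at chr12:89267413-89267472, was called higher at only 0.32 ± 0.06.

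**Figure D2:**
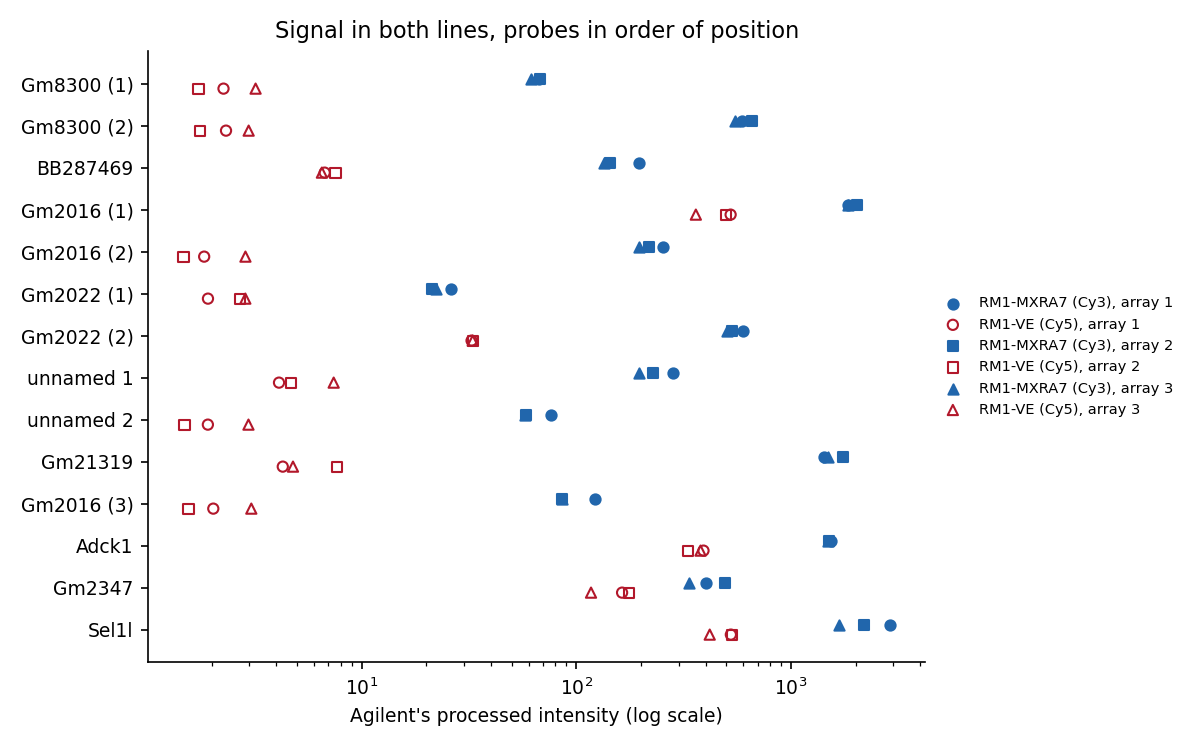
Agilent's processed intensity of the 14 leading members (log axis) in order of position. Filled blue marks are RM1-MXRA7 and open red marks RM1-VE, with a circle, square and triangle for arrays 1, 2 and 3. The marks of the lines do not overlap for any of these probes, which were chosen for their ratios, so the lack of overlap is no result about them. Most RM1-VE marks of the cluster before Adck1 lie below 10 whereas Adck1, Gm2347 and Sel1l lie above 100 in both lines.

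Adck1 was measured well above background in both lines on all arrays. The probe at chr12:89699931-89699990 had intensities of 1543, 1496 and 1485 in RM1-MXRA7 against 391.2, 331.7 and 379.0 in RM1-VE. Its log2 ratios were 2.17, 2.36 and 1.99, a mean of 2.17 ± 0.18, or 4.51-fold higher. The lines did not overlap for Adck1 on any array. A dimmer probe that the files also name Adck1, with no mm9 position, had a log2 ratio of -0.31 ± 0.04, but its description in the files is of an immunoglobulin mRNA, so it is not taken as a reading of Adck1.

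Sel1l and its neighbour Gm2347 stood near the far end. The Sel1l probe at chr12:93044963-93045022 had intensities of 2886, 2193 and 1670 in RM1-MXRA7 against 524.6, 530.8 and 418.2 in RM1-VE. The log2 ratios of Sel1l were 2.27, 1.86 and 1.91, a mean of 2.01 ± 0.23 or 4.03-fold. The lines did not overlap for Sel1l. Gm2347, at chr12:92995754-92995813, had intensities of 401.2, 490.1 and 334.7 against 163.4, 176.5 and 117.1. Its log2 ratios of 1.36, 1.60 and 1.40 averaged 1.45 ± 0.13, 2.74-fold higher and again without overlap.

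**Figure D3:**
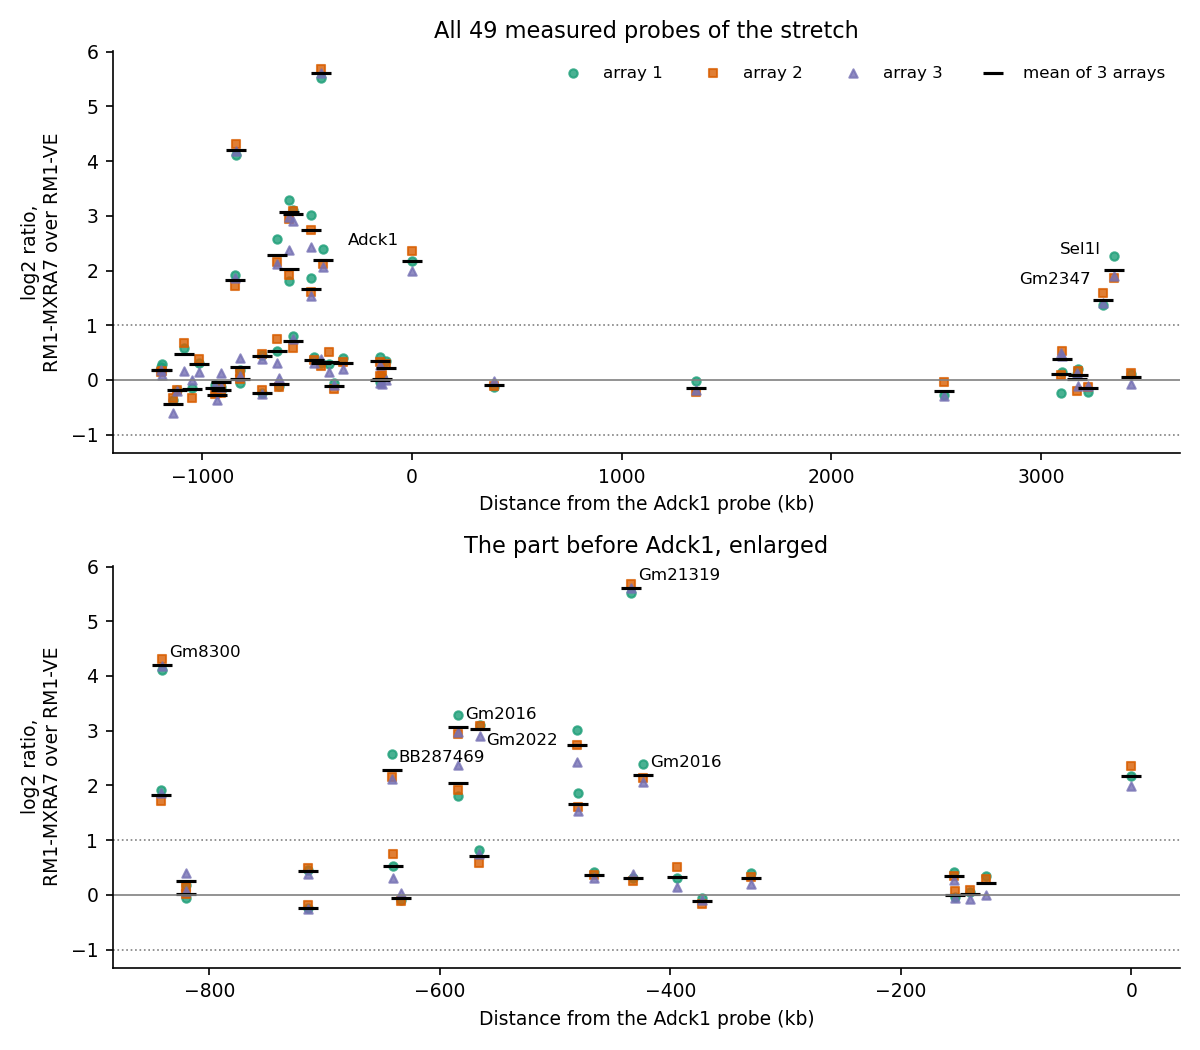
Log2 ratio of RM1-MXRA7 over RM1-VE for all 49 kept members against distance from the Adck1 probe (kb), with the region before Adck1 enlarged below. Coloured marks are the 3 arrays, black bars their mean, and dotted lines mark 2-fold. The 13 probes beyond 2-fold lie before Adck1, at Adck1 and next to Sel1l, and none lies between Adck1 and the neighbourhood of Sel1l.

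Probes under 2-fold lay between these genes, as the plot of ratios by distance shows. From the first 2-fold probe of Gm8300 to Adck1 there were 27 kept members, 11 of them at least 2-fold higher. The other 16 had a median log2 ratio of 0.28, and of 0.08 with the surface removed. They ran from -0.23 to 0.71 (-0.17 to 0.80 with the surface removed). Of the 16, 4 were called higher and 0 lower, beside 11.3% and 12.2% of all kept probes. The 4 were the smaller BB287469 and Gm2022 probes, an unnamed probe and NAP114914-1. Gm16381, amid the cluster, had log2 ratios of 0.44 and -0.23 at its probes, and 0.05 and -0.08 with the surface removed. Gm8587 and Gm5039, closer to Adck1, had -0.10 and 0.02. Genes of this cluster with no reading above background on all arrays included Gm2042, Gm7104 and Pramel51, the last named Gm10436 in older releases.

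Before the cluster, Gstz1, Tmed8, Vipas39, Sptlc2, Alkbh1, Slirp and Snw1 were not called. Their log2 ratios ran from -0.27 for Alkbh1, a nucleic acid dioxygenase, to 0.28 for a probe of Sptlc2, a subunit of serine palmitoyltransferase. Ahsa1, an activator of the Hsp90 chaperone, was called higher at 0.48 ± 0.27, and 0.25 with the surface removed. Noxred1 was the member called lower, with log2 ratios of -0.37, -0.33 and -0.60 (mean -0.43 ± 0.14). Snw1, a splicing factor whose probe is spotted 10 times, had a mean of -0.19 ± 0.05 and gave a measure of spot error: the SD among its 10 spots was 0.24, 0.20 and 0.19 on arrays 1 to 3. With the surface removed these SDs were 0.05, 0.04 and 0.05.

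Between Adck1 and Gm2347, no kept probe was at least 2-fold apart. The long gene Nrxn3, a presynaptic adhesion protein of neurons, had 7 probes. Of these 2 were kept, at -0.09 ± 0.05 and -0.14 ± 0.11. Cep128, a centriole protein, had -0.20 ± 0.14. Gtf2a1, a subunit of the general transcription factor TFIIA, was called higher at 1 probe (0.37 ± 0.20) and not at the other (0.12 ± 0.36). The endocytic adaptor Ston2 had 0.01 and 0.09, and Gm8378, beside Gm2347, had -0.15 ± 0.06. The genes of the thyroid axis in this gap, Dio2 and Tshr, were not well above background on any array in either line.

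Over the 36 kept members under 2-fold, the log2 ratios ran from -0.43 to 0.71, with a median of 0.04, or -0.01 with the surface removed. Of these 6 were called higher and 1 lower, against 11.3% and 12.2% of all kept probes, and nothing is read from these counts. Besides the members already named, the called ones included the transcript NAP114914-1 at 0.24 ± 0.14. The 31 members not kept had log2 ratios from -0.22 to 0.39, or from -1.14 to 2.05 with Agilent's processed signals, the highest at a probe of 5430427M07Rik. Of these members, 24 were above background on no array in either line. Of the kept members, 10 passed only through RM1-MXRA7, and 8 of these were at least 2-fold higher. A probe that passed only through the line in which it is high had to differ, so counts over the kept members are no measure of the stretch as a whole. Among the 39 kept in both lines, 5 were at least 2-fold higher, and the median was 0.09, or -0.0025 with the surface removed.

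Just inside the limits of the window, Gstz1 at the low end had a log2 ratio of 0.19 and Rpl31-ps12 at the high end 0.05. RefSeq places Rpl31-ps12 on chromosome 16. Just outside, Pomt2, a protein O-mannosyltransferase, had 0.11, and the first kept probe above, unnamed and at chr12:96310121-96310180, had 0.03.

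Agilent's processed signals, which differ from the values above in both background handling and normalization, gave larger ratios for the dim probes of the cluster. The mean log2 ratios were 8.16 for Gm21319, 8.02 and 4.81 for the kept Gm8300 probes, and 6.79 for the Gm2016 probe of the second set. The same signals gave 2.04 for Adck1, 2.17 for Sel1l and 1.43 for Gm2347, close to the values above. Without background correction and with loess kept, Gm21319 had 5.84 and the same Gm8300 probes 4.39 and 1.90. With the surface removed, Gm21319 had 5.55, Adck1 1.98, Sel1l 2.11 and Gm2347 1.29. The dim cluster probes kept their direction under each processing and changed in size, as the plot by processing shows.

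**Figure D4:**
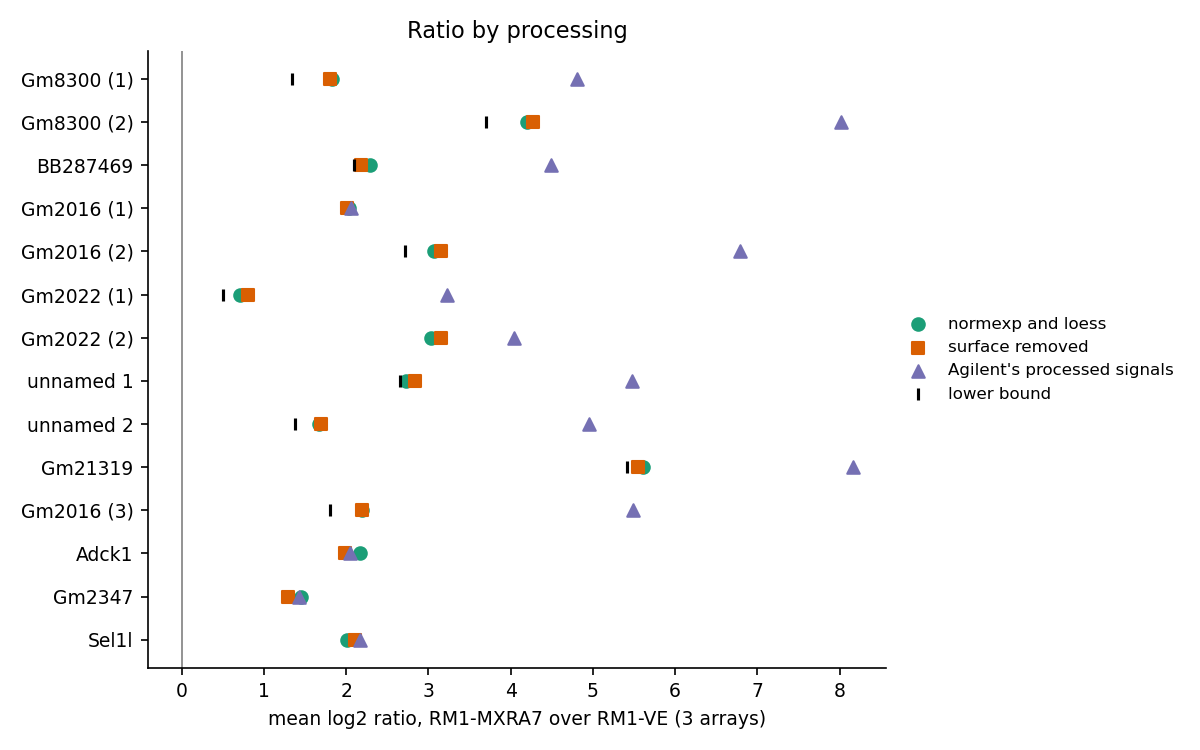
Mean log2 ratio over 3 arrays of the 14 leading members after normexp and loess (circles), with the surface removed (squares) and from Agilent's processed signals (triangles). Black ticks are lower bounds where RM1-VE was below background. Processed signals give larger ratios for the dim probes of the cluster, and all values lie above 0.

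Along chromosome 12, windows of 5 Mb were set beside the stretch as a description. Kept members had a median log2 ratio of 0.24, against -0.06 over the 740 kept probes elsewhere on the chromosome and -0.01 over all kept probes. With the surface removed the medians were 0.12, -0.05 and 0.0042. The median of the kept members includes 10 that passed only through RM1-MXRA7. Among the 39 members kept in both lines it was 0.09, or -0.0025 with the surface removed, so no shift of the whole stretch is read here. Elsewhere on chromosome 12, 13 probes were at least 2-fold higher and 4 at least 2-fold lower. The next window with many lay 20 Mb further on, with 6 higher and 2 lower of 73, and the window 10 Mb further on held 4 of 36. Only 3 kept probes fell in the window that follows the stretch, so its far edge is thinly covered.

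**Figure D5:**
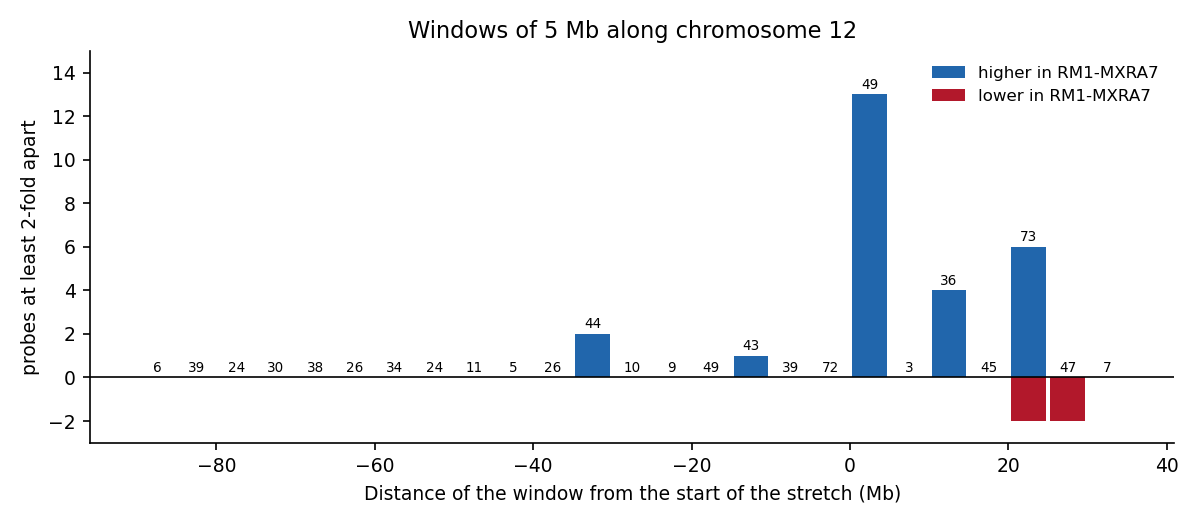
Number of probes at least 2-fold higher (blue) or lower (red, drawn below 0) in RM1-MXRA7 in windows of 5 Mb along chromosome 12, by distance of the window from the start of the stretch. Figures over the bars are kept probes per window. The stretch holds 13 of 49, and no other window has more than 6 higher.

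The RefSeq table of promoters (GRCm38.p6) held 18 of the 39 names with a kept probe. Promoter sequence was compared only for Gm21319, BB287469, Gm16381, Gm2042, Adck1 and Sel1l, of which Gm2042 had no kept probe. The sequences are independent of the array ratios, but the choice was not, since Gm21319, BB287469, Adck1 and Sel1l are leading members. The windows of Gm21319 and BB287469, from 250 bases before to 50 after the start, aligned with 217 identical bases, 72 different and 22 gaps. All other pairs among these genes, Gm16381, Gm2042, Adck1 and Sel1l had between 148 and 168 identical bases. The last 200 bases of both windows, which begin 150 before the start, are shown because these promoters are the most alike of those compared, with shared runs of at least 12 bases in capitals (chr12:87775706-87775905, minus strand, and chr12:87816427-87816626, plus strand).
Gm21319: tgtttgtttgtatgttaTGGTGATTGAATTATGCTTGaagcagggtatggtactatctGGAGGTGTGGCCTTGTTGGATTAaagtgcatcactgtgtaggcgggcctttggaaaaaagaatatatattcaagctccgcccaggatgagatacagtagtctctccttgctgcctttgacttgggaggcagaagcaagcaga
BB287469: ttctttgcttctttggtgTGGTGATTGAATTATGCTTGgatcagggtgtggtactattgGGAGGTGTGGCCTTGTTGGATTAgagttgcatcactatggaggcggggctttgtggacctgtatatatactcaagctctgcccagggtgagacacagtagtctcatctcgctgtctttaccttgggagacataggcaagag
The longer run, GGAGGTGTGGCCTTGTTGGATTA, was found on either strand in 3 of 32851 promoters of the table (0.00913%), those of BB287469, Gm21319 and Gm4027. A shared run is a description of the sequence and no sign of a binding site. By these GRCm38.p6 positions Gm21319 lies below BB287469, whereas in mm9 its probe lies above that of BB287469. The builds thus differ in this order, and the place of Gm21319 within the cluster is not settled here.

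The genes that work with the members were read from lists chosen with earlier results of these data known. Of 18 genes of the Sel1l degradation complex, all kept, Sel1l was called higher, 2 were called lower and 15 were not called, with a median of 0.09 (0.04 with the surface removed). Over all kept probes 11.3% were called higher and 12.2% lower. The 2 lower were Derl3, a derlin of the retrotranslocation channel, at -1.05 ± 0.15, and Edem2, a mannosidase of the pathway, at -0.35 ± 0.13. The ligase Syvn1 had 0.11 ± 0.11 and the lectin Os9 -0.08 ± 0.03. Sel1l had the largest ratio of the 18, but it was chosen from these ratios, so nothing is read from its rank.

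In the ADCK and COQ8 family, 4 of 5 genes were kept and 3 called higher, beside 11.3% of all kept probes. One of the 3 is Adck1, which was chosen from these ratios. Besides Adck1 these were Adck2 at 0.35 ± 0.04 and Adck5 at 0.46 ± 0.14, while Coq8b had 0.01 ± 0.19. The family median, with Adck1 counted, was 0.41, and 0.22 with the surface removed. Of 6 neurexins and neuroligins 5 were kept, with Nrxn2 called higher (0.42 ± 0.05), Nlgn3 called lower (-0.35 ± 0.19) and 3 not called. Their median was -0.14 (-0.13 with the surface removed). Called lower were 12.2% of all kept probes.

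A probe sharing 50 of 60 bases with the Gm2016 probe measured in both lines was found outside the members, without an mm9 position. It belongs to LOC101056486, described in the files as like translation initiation factor 1A. Its log2 ratios were 1.72, 2.24 and 2.16, a mean of 2.04 ± 0.28, with 303.0, 371.4 and 336.5 in RM1-MXRA7 against 56.8, 47.7 and 42.7 in RM1-VE. The lines were apart on every array, but the share of all kept probes so apart was not counted. Of the 3 named genes of that factor family, Eif1ax was called higher at 0.27 ± 0.12 and Eif1a was not, at 0.11 ± 0.24. Eif1ad was not called, and its 2 probes gave 0.41 and 0.11. Among all kept probes 11.3% were called higher, so nothing is read from the 1 call. The median of these 3 named genes, without LOC101056486, was 0.11, and 0.20 with the surface removed.

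Genes known for a burst of expression in the 2-cell mouse embryo were listed as well. Of 28 listed, 24 had a probe and 5 were kept. None of these 5 was called in limma, beside 11.3% called higher and 12.2% called lower over all kept probes. Their median was -0.06 (-0.07 with the surface removed). Zscan4c, a defining gene of that stage, had -0.16 ± 0.08, Zfp352 -0.06 ± 0.15 and Dux 0.02 ± 0.17.

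The transfected gene itself gave no clear check of the labels. Its 2 kept Mxra7 probes had log2 ratios of 0.31 ± 0.14 and 0.10 ± 0.04, and 0.0097 and 0.09 with the surface removed, and neither was called in both ways. The labels do not say which part of MXRA7 was introduced, so a probe outside it would check nothing. Directions here rest on the labels of the dyes.

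Across the array, 21992 to 23176 probes were well above background in Cy3 and 21787 to 24181 in Cy5, and with so few arrays the precision is limited. Of the epithelial markers, the keratins Krt8 and Krt18 were kept, and Cdh1 and Epcam were not. Of 3 basal markers 2 were kept, with Trp63 called lower (summed processed intensity 247.0 to 259.9 in RM1-MXRA7 and 288.7 to 337.2 in RM1-VE, and in that order for the lists that follow). All 4 mesenchymal markers were kept, with Fn1 called higher and Col1a1 and Acta2 lower (63240 to 67580 and 51830 to 57680). Blood markers gave 1 of 3 kept, Cd68, with Ptprc and Hba-a1 not kept (888.2 to 3100 and 1142 to 3194). Both endothelial markers were kept, with Cdh5 called lower (59.6 to 75.1 and 107.2 to 144.3). The part of such marker differences in the ratios of the stretch was not tested. Among all kept probes 11.3% were called higher and 12.2% lower.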

How the data were processed

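Per the file headers, the authors deposited scanner output of Agilent Feature Extraction (version 10.7.1.1 in the submitters' processing notes), with mean, background and processed intensity per spot in both channels. The matrix of the series, also deposited, gives 1 linear ratio per probe and array. A comparison with Agilent's processed signals, Cy3 over Cy5, found 100% of its values equal to a tolerance of 1%, which settles scale and direction and shows no centring (column medians 1.02, 1.03 and 0.972). In limma 3.58.1 under R 4.3.3, background was corrected by normexp with an offset of 50, and loess was applied within arrays with 1377 control spots at weight 0. Outlier flags were left out and spots of 1 probe averaged. Log2 ratios of RM1-MXRA7 over RM1-VE, computed from the deposited intensities, were fitted with lmFit and eBayes over 21791 kept probes and adjusted by Benjamini-Hochberg, with 15 prior and 2 residual degrees of freedom. p-values thus measure only spread between these 3 arrays.

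A surface of degree 4 over row and column, also times intensity, was removed in a second fit. It took 27.4%, 26.3% and 19.8% of the variance on arrays 1 to 3, and the Spearman correlation over probes with Agilent's processed ratios went from 0.71 to 0.92. Leading members lay in array rows 26 to 482 of 532. Ratios of array pairs correlated over probes at 0.85, 0.78 and 0.80, where probes are not independent. Names came from RefSeq through the accession for 47 of 80 members. Likeness was counted over shifts of up to 20 bases without gaps. The search over the array used both strands, whereas the likeness map and the printed sets compared the probes as written. Promoters were aligned with Biopython 1.88.

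Members, lists and alternatives were chosen with earlier results of these data known. Log2 ratios per array go to kept members at least 2-fold apart in both fits or with a bound, and to further kept members of their genes. Most others are given by mean, range or count. Both lines of a replicate number sit on the same array, so its ratio holds the pairing. The fit was tested on simulated data. Alternatives covered background, normalization, filter, the matrix values, the prior, arrays left out and the single channels. Some marker genes are not reported here.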

Additional observations from a re-analysis of the deposited data

How the results depend on the processing

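For the 14 leading members, all 173 values under the alternatives run kept direction and call. These members were chosen for their ratios, and several alternatives could not change a ratio. The matrix values repeat the processed signals, and no filter, the other prior and the single channels leave the ratio as it was. The 173 values are therefore no measure of robustness. Counts moved. The share of all probes called after loess alone, or under each alternative, is not given here. Whether the called counts of members moved with those of the whole array was therefore not tested, and nothing is read from these moves. Members called higher, 27 after loess alone, were 17 each with processed signals, median centring, the filter on both channels and the matrix values, and 22 to 26 with an array left out. Members at least 2-fold higher, 13, were 5 under the filter on both channels, which by construction drops members dim in RM1-VE. Members called lower, 5, were 2 with processed signals or matrix values, 18 with median centring, 8 with no filter and 2 to 3 with an array left out. At least 2-fold lower were 0, and 1 with median centring. The median of 0.24 was 0.12 with the surface removed, 0.054 with processed or matrix values, -0.087 with median centring, 0.072 with no filter and 0.092 with both channels required. The other causes were not tested. Single channels with the array as a replicate block gave 27 higher and 5 lower, and without the block 18 and 1. Signal over background limits the dim cluster probes to bounds.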
